A study of Mus musculus with 28 samples.

Results

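Serine protease inhibitors (serpins) of clade B and of the A3 branch of clade A were followed in the RNA-seq of murine bone marrow-derived macrophages (BMDMs). The genes were Serpinb1a, Serpinb6a, Serpinb6b, Serpinb8, Serpinb9, Serpina3f and Serpina3g, which are 7 of the 30159 genes with at least 1 count. They were listed by name, and the list was chosen on the loss of Serpinb1a in VWF-treated cultures at 16 h. For that reason the values of all 7 genes in the contrast of VWF with control at 16 h are a description without a test. The same holds for Serpinb1a in every comparison that uses the VWF or control cultures of 16 h.

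The 28 cultures were BMDMs grown with M-CSF, the growth factor that drives macrophage differentiation, and the study's methods give C57/B6JB mice of 8 to 12 weeks as their source. All cultures received fresh medium with calcium, and then either PBS (control), human plasma-derived von Willebrand factor (VWF, 10 µg/ml) or bacterial lipopolysaccharide (LPS, 100 ng/ml). Each treatment was sampled after 3.5 h and 16 h, in 5 cultures each for control and VWF and in 4 for LPS. The labels call the cultures biological replicates but do not say whether each came from its own mouse, so the p values measure the spread between cultures.

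The files held between 41131209 and 77699206 counts per culture (median 52986574). The 8 macrophage markers (among them Adgre1, Csf1r and Cd68) together reached between 7670 and 50694 TPM in every culture, where TPM are counts corrected for gene length and scaled to a fixed sum per culture. Lyz2 was the largest of the 8 in every group, with means between 6197 and 35733 TPM. Group means lay between 654 and 2417 TPM for Adgre1 and between 301 and 875 TPM for Csf1r. The T or NK cell markers stayed at or below 1.66 TPM in sum, the mast cell markers at or below 0.80 TPM and the erythroid markers at or below 0.35 TPM. Fibroblast markers summed to between 1.42 and 83.6 TPM. The control culture 5 at 16 h and the LPS culture 4 at 16 h stood apart, with correlations of 0.913 and 0.950 with the mean of the rest of their group, against at least 0.977 in all others. Where leaving them out moved a value by much, that value is given too.

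Serpins are suicide substrates: a protease cuts an exposed loop of the inhibitor, the inhibitor refolds, and the enzyme is trapped and lost. Clade B serpins lack a classical secretion signal and act mostly inside the cell, where in leukocytes they guard against proteases that leak from granules. The A3 branch has a single antichymotrypsin gene in humans and a cluster of copies in mice. Serpinb1a, the mouse counterpart of human SERPINB1, inhibits the neutrophil proteases elastase, proteinase-3 and cathepsin G. Serpinb6a is the counterpart of SERPINB6, an inhibitor of cathepsin G, and Serpinb6b is a close paralogue of it. Serpinb8 is related to an inhibitor of the proprotein convertase furin. Serpinb9 inhibits granzyme B, the killer protease of cytotoxic lymphocytes. Serpina3g, also known as Spi2A, inhibits lysosomal cysteine cathepsins such as cathepsin B, and Serpina3f is its neighbour in the A3 cluster.

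In GRCm38, 4 of the clade B genes lay close together on chromosome 13. These were Serpinb1a (ENSMUSG00000044734, chr13:32842092-32851185, minus strand), Serpinb6b (ENSMUSG00000042842, chr13:32965209-32979067, plus strand), Serpinb9 (ENSMUSG00000045827, chr13:33003250-33017957, plus strand) and Serpinb6a (ENSMUSG00000060147, chr13:33917918-34002794, minus strand). Serpinb6b lay 114023 bases from Serpinb1a and 24182 bases from Serpinb9. Serpinb8 (ENSMUSG00000026315) was at chr1:107590006-107610484 on the plus strand. Serpina3f (ENSMUSG00000066363, chr12:104214544-104221129) and Serpina3g (ENSMUSG00000041481, chr12:104236245-104241939), both on the plus strand of chromosome 12, were 15115 bases apart. All 7 are annotated as protein coding.

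Promoter windows of 250 bases before a RefSeq transcription start (GRCm38.p6) were held for 6 of the 7 genes, in 8 windows, and Serpinb1a had none. The windows of Serpina3f, Serpina3g and Serpinb9 are printed 5′ to 3′ because these are the 3 serpins called higher in LPS-treated cultures in at least 1 comparison with control. Capitals mark matches to the GAS motif (TTCNNNGAA, the form bound by STAT dimers after interferon) or to the core of the interferon-stimulated response element, ISRE (GAAANNGAA). Both strands were searched. The window of Serpina3f (chr12:104214294-104214543, before the more upstream start) and that of Serpina3g (chr12:104235897-104236146) lay in no annotated gene, and that of Serpinb9 (chr13:33004291-33004540) lay in an intron of a longer annotated Serpinb9 transcript. All are on the plus strand.
Serpina3f: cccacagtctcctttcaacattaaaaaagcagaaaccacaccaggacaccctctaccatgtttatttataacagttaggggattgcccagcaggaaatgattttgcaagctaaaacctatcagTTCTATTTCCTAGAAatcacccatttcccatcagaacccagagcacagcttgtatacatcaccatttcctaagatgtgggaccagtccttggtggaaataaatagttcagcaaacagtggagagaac
Serpina3g: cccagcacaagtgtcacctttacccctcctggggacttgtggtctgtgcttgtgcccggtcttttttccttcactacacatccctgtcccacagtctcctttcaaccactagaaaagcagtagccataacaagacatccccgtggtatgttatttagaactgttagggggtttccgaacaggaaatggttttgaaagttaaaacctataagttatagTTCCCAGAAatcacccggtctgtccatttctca
Serpinb9: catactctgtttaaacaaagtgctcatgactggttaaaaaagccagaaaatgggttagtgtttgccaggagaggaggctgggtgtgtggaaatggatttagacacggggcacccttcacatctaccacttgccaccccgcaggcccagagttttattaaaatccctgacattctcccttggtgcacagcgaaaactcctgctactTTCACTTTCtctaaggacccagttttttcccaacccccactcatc

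Serpina3f held the GAS match TTCCTAGAA 121 bases before its start, overlapping the ISRE core match TTCTATTTC on the other strand. Serpina3g held the GAS match TTCCCAGAA, 33 bases before its start. The 2 windows were alike at 169 of 214 aligned positions (79.0%). Serpinb9 held only an ISRE core match, TTCACTTTC on the minus strand, 45 bases before its start. A Serpinb6a window had a GAS match, TTCCGGGAA, overlapping an ISRE core match, TTCGATTTC, and the windows of Serpinb6b and Serpinb8 had neither motif. For kappaB, only the form GGANTTNCC was searched, and it matched in none of the 8 windows. Other forms of the kappaB motif were not searched, so their absence is not shown. Over all 32851 promoter windows of the same length, 7.02% held the GAS motif, 7.13% the ISRE core and 3.15% the searched kappaB form. The matches describe these letters and no factor binding was measured.

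Serpinb6a was by far the most abundant of the 7 transcripts in 5 of the 6 groups when compared per length. It gave 85.3% ± 2.29 (SD, n = 5) of the summed TPM of the 7 genes in control cultures at 3.5 h, at 560 ± 61.6 TPM. In LPS-treated cultures at 16 h this share was 31.6% ± 9.81 (n = 4), and Serpinb9 then held 33.4% ± 3.43 and Serpina3g 17.9% ± 3.45. In VWF-treated cultures at 16 h Serpinb6a held 84.6% ± 3.58 (n = 5), with Serpinb9 next at 6.46% ± 2.06. Serpinb1a never exceeded 5.67% of the sum in any culture. On the TPM scale it ranged from 0.0384 in a VWF-treated culture at 16 h to 22.4 in a control culture at 16 h. Part of the Serpinb6a signal is uncertain: 29.3% of its exon length overlaps Ripk1, Nqo2 and 1110046J04Rik on the opposite strand, and the strand setting of the counting is not given in the sources used here. Reads of these genes cannot be told apart from its own.

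**Figure D1:**
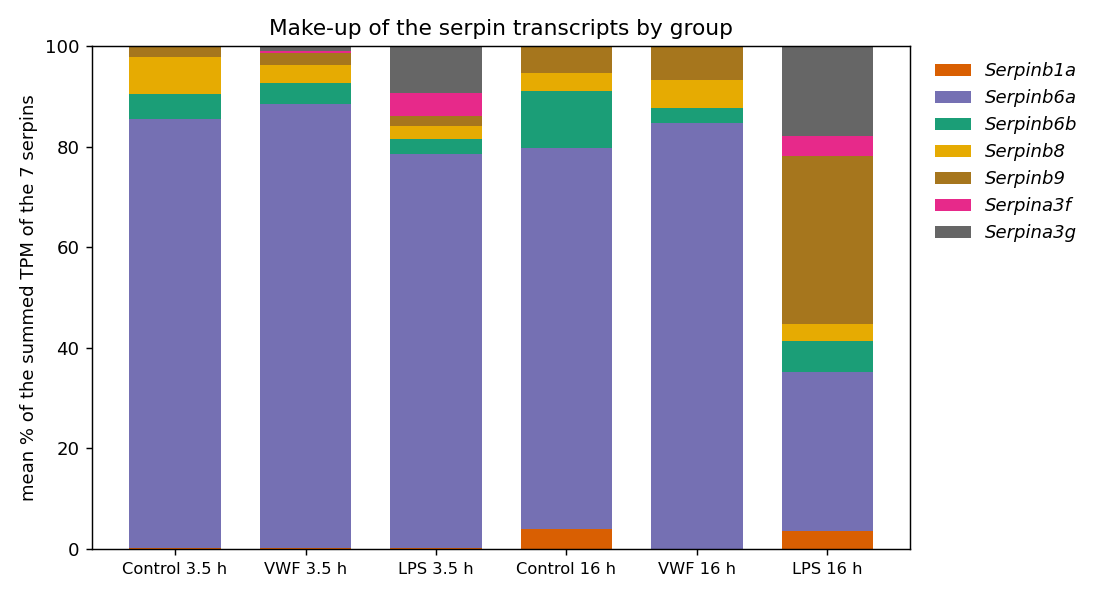
Bars stack the mean share (%) of each serpin in the summed TPM of the 7 serpins, for each of the 6 groups (n = 5 control, 5 VWF and 4 LPS cultures per time). Serpinb6a fills most of every bar except that of LPS at 16 h, where Serpinb9 and Serpina3g hold 33.4% and 17.9%.

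Serpinb1a, the inhibitor of neutrophil proteases, was low at 3.5 h in every group and high at 16 h in control and LPS-treated cultures. Levels between groups are given in CPM, counts scaled to library size with TMM factors over all 28 cultures. In control cultures it was at 1.10, 1.13, 1.16, 1.27 and 1.77 CPM at 3.5 h and at 9.41, 11.7, 12.2, 13.5 and 16.2 CPM at 16 h. The LPS-treated cultures had 0.805, 0.949, 1.46 and 1.59 CPM at 3.5 h and 8.27, 9.64, 18.2 and 22.8 CPM at 16 h. Control and LPS-treated cultures thus overlapped at each time, and neither overlapped between the times.

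VWF-treated cultures went the other way. Their Serpinb1a values were 0.305, 0.584, 0.649, 0.675 and 0.793 CPM at 3.5 h and 0.0314, 0.0710, 0.0953, 0.220 and 0.337 CPM at 16 h. Behind the latter stood only 2, 6, 6, 12 and 19 counts per culture, against 551 to 1378 in the control cultures of the same time. The group means were 0.151 ± 0.126 CPM with VWF, 12.6 ± 2.49 with control (both n = 5) and 14.7 ± 6.94 with LPS (n = 4). Every VWF-treated culture of 16 h lay below every control and LPS-treated culture of that time. The fitted log2 difference from control was -6.43 (SE 0.49), an 83.5-fold difference of the means, and that from LPS was -6.65 (SE 0.59). Leaving out each culture in turn moved the difference from control between -6.95 and -6.17. These values belong to the contrast the genes were chosen on and carry no test. In that contrast 8.71% of the 7798 genes tested were called, where a call means an adjusted p under 0.05 and an absolute log2 difference above 1.

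At 3.5 h, in cultures that took no part in the choice, Serpinb1a was already lower with VWF. All 5 VWF-treated cultures lay below all 5 control cultures, with a log2 difference of -1.03 (SE 0.28, adjusted p = 0.0130 in edgeR's quasi-likelihood test over all genes with a count). The call was lost without control culture 2 (-0.88), without VWF culture 3 (-0.87) and with all groups in one fit (-0.99), all short of the fold threshold. The same test gave -1.02 (SE 0.34, adjusted p = 0.0321) for VWF against LPS, and this call was also lost without LPS culture 2 or 4, without VWF culture 3 or 5, and under scaling by library size alone (-0.68). LPS against control at 3.5 h gave -0.04 (SE 0.30, adjusted p = 0.93). From 3.5 h to 16 h Serpinb1a rose 12.2-fold in the LPS-treated cultures (log2 difference 3.64, SE 0.41, adjusted p = 6.63e-05). In control cultures the corresponding log2 difference was 3.31 (SE 0.20) and in VWF-treated cultures -2.06 (SE 0.50), both without a test.

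The neutrophil serine proteases that Serpinb1a and Serpinb6a inhibit were near the detection limit. Elane, Prtn3 and Ctsg reached at most 1.13, 2.34 and 1.03 TPM in any culture, and none passed the filter. Because Serpinb1a is abundant in neutrophils, the neutrophil markers are given beside it. The 8 markers summed to between 37.0 and 100.1 TPM in control cultures at 16 h, between 65.0 and 129 TPM in VWF-treated cultures and between 42.7 and 91.0 TPM in LPS-treated cultures. Most of this was S100a8 and S100a9, while Ly6g was at 0 in every culture of 16 h. At 16 h the group means of S100a8 were 58.6 TPM with control, 58.4 TPM with VWF and 45.1 TPM with LPS. Those of S100a9 were 8.11, 17.8 and 11.8 TPM in the same order. The part of neutrophils in the Serpinb1a values was not tested. In bulk samples, fewer cells of a type and less RNA per cell cannot be told apart.

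Serpinb6b, the paralogue of Serpinb6a, was the other of the 7 genes lower by more than the fold threshold with VWF than with control at 16 h. At 16 h the control cultures had 25.8, 33.5, 37.1, 37.9 and 41.0 CPM, and the LPS-treated cultures had 18.5, 24.3, 25.6 and 26.4 CPM. The VWF-treated cultures had 6.29, 7.21, 7.76, 9.04 and 9.73 CPM. No VWF-treated culture reached the lowest culture of either other group. The log2 difference from control was -2.14 (SE 0.16), given without a test. Against LPS, Serpinb6b was lower by 2.96-fold (log2 difference -1.56, SE 0.16, adjusted p = 2.07e-05). In LPS-treated against control cultures at 16 h the log2 difference was -0.53 (SE 0.16, adjusted p = 0.0164), short of the fold threshold. Scaling by library size gave -1.08, with the median of all genes then at -0.57 in place of -0.03.

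At 3.5 h the Serpinb6b values were nearer to each other. They were 19.5, 19.9, 21.98, 24.1 and 25.5 CPM in control cultures, 13.2, 13.4, 16.1, 17.5 and 18.1 CPM with VWF, and 14.9, 18.6, 18.6 and 20.2 CPM with LPS. The VWF-treated and control cultures did not overlap, with a log2 difference of -0.47 (SE 0.12, adjusted p = 0.00835) that missed the fold threshold. VWF against LPS gave -0.19 (SE 0.13, adjusted p = 0.26). The difference between VWF and LPS was larger at 16 h than at 3.5 h by -1.40 on the log2 scale (SE 0.21, adjusted p = 2.52e-05). From 3.5 h to 16 h the log2 change was 0.67 (SE 0.13) in control and -0.96 (SE 0.15) in VWF-treated cultures, neither past the fold threshold. The latter passed it, at most at -1.03, when VWF culture 3 or 4 of 3.5 h or VWF culture 3 or 5 of 16 h was left out.

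Serpinb6a, the abundant inhibitor of cathepsin G, was lower at 16 h than at 3.5 h, most of all with LPS. In LPS-treated cultures it was at 1004, 1183, 1187 and 1252 CPM at 3.5 h and at 224, 245, 285 and 441 CPM at 16 h. It fell by 1.93 on the log2 scale (SE 0.22, adjusted p = 7.09e-05), and by 2.18 without LPS culture 4 of 16 h. Control cultures had 714, 903, 918, 1034 and 1159 CPM at 3.5 h and 467, 520, 522, 554 and 959 CPM at 16 h, with the 16 h maximum in culture 5, which stood apart. VWF-treated cultures had 647, 734, 887, 983 and 1069 CPM at 3.5 h and 425, 541, 587, 593 and 621 CPM at 16 h. The time differences of -0.63 (SE 0.21) with control and -0.64 (SE 0.15) with VWF did not reach the fold threshold. Without control culture 5 of 16 h the former was -0.87.

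Between treatments, Serpinb6a sat at the threshold. At 16 h LPS against control gave -0.98 (SE 0.28, adjusted p = 0.0149), which was -1.24 without LPS culture 4, -0.75 without control culture 5 and -1.001 without both. VWF against LPS at 16 h gave 0.89 (SE 0.21, adjusted p = 0.00387), and 1.14 without LPS culture 4. The effect of LPS was lower at 16 h than at 3.5 h by -1.28 on the log2 scale (SE 0.32, adjusted p = 0.00317), which was -1.54 without LPS culture 4 and -1.04 without control culture 5 of 16 h. VWF against control was close to 0 at each time, at -0.10 (SE 0.16, adjusted p = 0.66) at 3.5 h and -0.13 (SE 0.19, no test) at 16 h, the latter 0.089 without control culture 5. At 3.5 h the log2 difference was 0.31 (SE 0.14, adjusted p = 0.0725) for LPS against control and -0.40 (SE 0.14, adjusted p = 0.0405) for VWF against LPS. The former turned to -0.21 with library size scaling, where the median of all genes was -0.54 in place of -0.02.

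**Figure D2:**
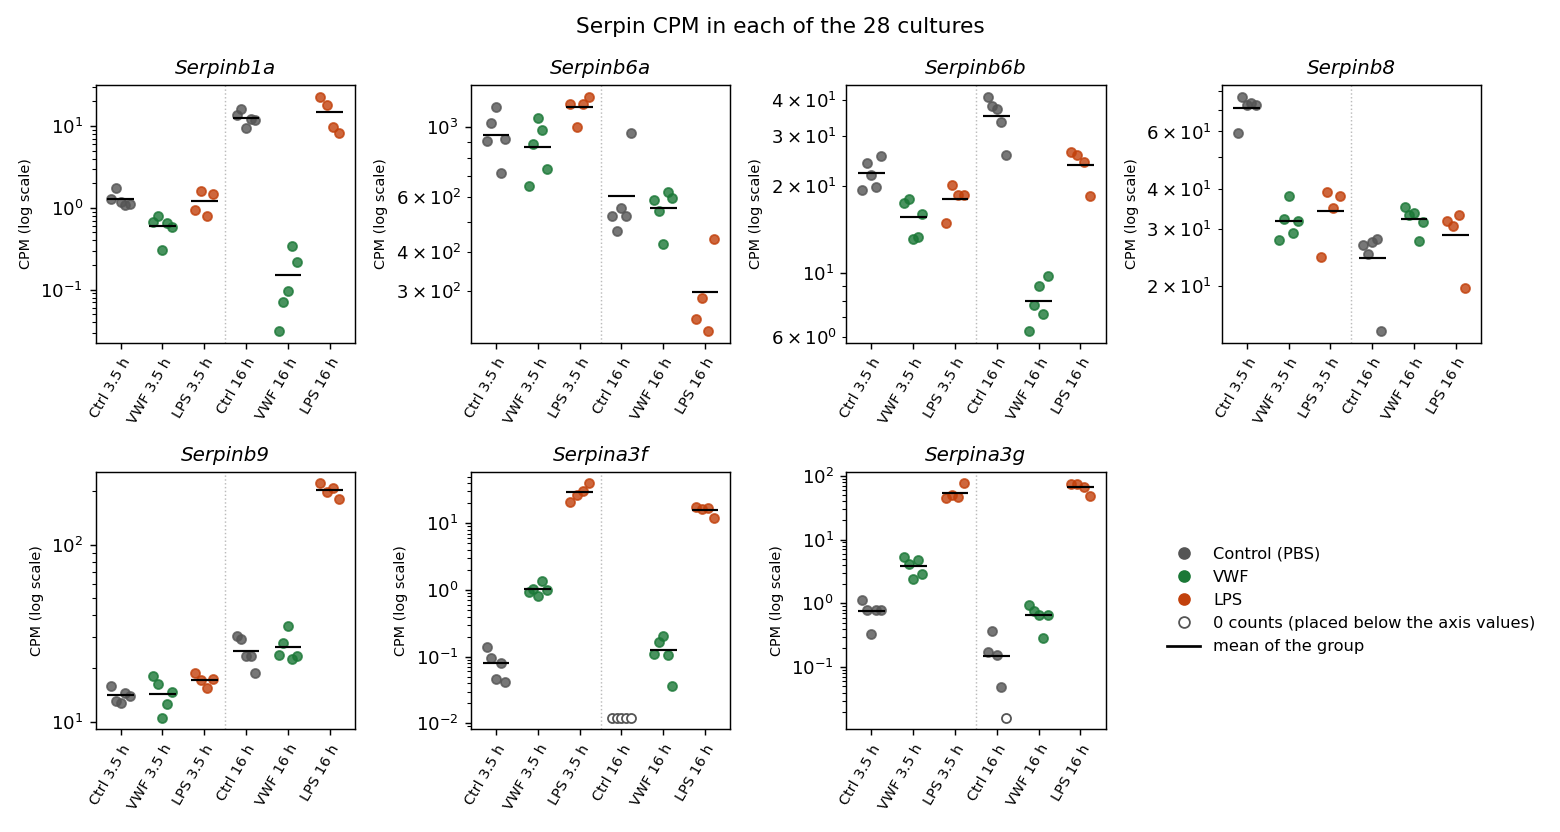
Each panel plots 1 serpin, each point is the CPM of 1 culture on a log axis, and the line is the mean of its group (n = 5 control, 5 VWF and 4 LPS cultures per time). Serpinb1a separates VWF from control and LPS at 16 h, Serpinb9 separates LPS from both at 16 h, and Serpina3f has 0 counts in all 5 control cultures of 16 h (open points).

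Serpinb8, the relative of a furin inhibitor, was lower with both stimuli than with control at 3.5 h, and lower at 16 h than at 3.5 h in control cultures. At 3.5 h the control cultures had 59.4, 72.2, 72.4, 73.7 and 76.9 CPM. The VWF-treated cultures had 27.7, 29.2, 31.8, 32.2 and 37.8 CPM and the LPS-treated cultures 24.6, 34.8, 37.9 and 38.9 CPM. All treated cultures lay below all control cultures. Serpinb8 fell by 1.13 on the log2 scale with VWF (SE 0.10, adjusted p = 1.90e-06) and by 1.04 with LPS (SE 0.14, adjusted p = 5.41e-05). The second call is at the threshold. It was lost without LPS culture 1 (-0.91), under edgeR's filterByExpr filter (-0.96) and without a filter on low values. VWF and LPS were not told apart, at -0.08 (SE 0.14, adjusted p = 0.66).

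At 16 h the same gene was at 14.5, 25.2, 26.7, 27.4 and 27.9 CPM in control cultures. It was at 27.6, 31.6, 33.0, 33.5 and 35.0 CPM in VWF-treated and at 19.7, 30.6, 31.8 and 33.2 CPM in LPS-treated cultures. In control cultures Serpinb8 fell by 1.53 from 3.5 h to 16 h on the log2 scale (SE 0.17, adjusted p = 7.47e-05), and by 1.40 without culture 5 of 16 h. The changes with time were 0.03 (SE 0.10) with VWF and -0.21 (SE 0.19) with LPS, neither of them past the threshold. At 16 h LPS against control gave 0.28 (SE 0.22, adjusted p = 0.30) and VWF against control 0.39 (SE 0.17, no test). The LPS effect differed between the times by 1.34 (SE 0.26, adjusted p = 0.000423). Furin, the protease itself, also fell with time in control cultures, by 1.47 on the log2 scale (SE 0.16, adjusted p = 9.13e-05), and also in VWF-treated (-1.89, SE 0.13) and LPS-treated cultures (-1.39, SE 0.27).

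Serpinb9, the granzyme B inhibitor, rose late and with LPS. The 4 LPS-treated cultures had 15.5, 17.2, 17.4 and 18.9 CPM at 3.5 h and 181, 199, 209 and 222 CPM at 16 h, an 11.8-fold rise (log2 difference 3.58, SE 0.11, adjusted p = 1.38e-07). At 16 h the control cultures had 18.9, 23.5, 23.5, 29.5 and 30.6 CPM and the VWF-treated cultures 22.7, 23.4, 23.9, 27.8 and 34.7 CPM. Every LPS-treated culture of 16 h lay above all other cultures of the series. Serpinb9 was higher with LPS than with control by 8.05-fold (log2 difference 3.05, SE 0.15, adjusted p = 2.34e-07) and lower with VWF than with LPS by 7.65-fold (-2.93, SE 0.14, adjusted p = 1.56e-07). VWF against control gave 0.06 (SE 0.17) at 16 h, without a test. The B cell markers summed to between 1.60 and 4.35 TPM in the LPS-treated cultures of 16 h and to between 13.8 and 21.1 TPM in the control cultures, and their part in the Serpinb9 and Serpinb6a values was not tested.

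At 3.5 h Serpinb9 was at 12.7, 13.1, 14.0, 14.5 and 16.0 CPM in control cultures and at 10.5, 12.6, 14.6, 16.2 and 18.0 CPM with VWF. The log2 difference was 0.06 (SE 0.15, adjusted p = 0.78). LPS against control gave 0.31 (SE 0.10, adjusted p = 0.0191), below the fold threshold. With library size scaling both changed sign, to -0.15 (adjusted p = 0.47) with VWF and -0.21 (adjusted p = 0.119) with LPS. The LPS effect was larger at 16 h by 2.74 on the log2 scale (SE 0.17, adjusted p = 2.21e-09). From 3.5 h to 16 h, Serpinb9 rose by 0.85 (SE 0.14, adjusted p = 0.000835 in the edgeR test) in control cultures. In VWF-treated cultures it rose by 0.89 (SE 0.17, adjusted p = 0.000682 in the same test). Both were short of the fold threshold. Its target Gzmb did not pass the filter, with at most 0.52 TPM in any culture.

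Serpina3f and Serpina3g, the A3 cluster genes, had the highest log2 differences of the 7 genes in LPS-treated against control cultures, and at 3.5 h their order was LPS over VWF over control. Serpina3f was at 0.0417, 0.0460, 0.0803, 0.0971 and 0.141 CPM in control cultures at 3.5 h, from 2 to 8 counts per culture. It was at 0.802, 0.942, 1.00, 1.04 and 1.34 CPM with VWF and at 20.8, 26.2, 30.8 and 39.7 CPM with LPS. The 3 groups did not overlap. LPS against control gave a log2 difference of 8.48 (SE 0.30, adjusted p = 1.40e-09). VWF against control gave 3.69 (SE 0.38, adjusted p = 2.86e-07 over all genes with a count), and VWF was below LPS by 28.7-fold (log2 difference -4.82, SE 0.21, adjusted p = 1.13e-07).

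Serpina3g, the cathepsin inhibitor, had the same order. The control cultures of 3.5 h had 0.337, 0.790, 0.793, 0.796 and 1.13 CPM, the VWF-treated cultures 2.42, 2.87, 4.09, 4.83 and 5.26 CPM, and the LPS-treated cultures 45.2, 46.4, 49.3 and 75.6 CPM. Again no groups overlapped. Serpina3g rose 70.5-fold with LPS (log2 difference 6.17, SE 0.29, adjusted p = 1.05e-08) and 5.07-fold with VWF (2.41, SE 0.29, adjusted p = 1.98e-06 over all genes with a count). VWF was below LPS by 13.9-fold (-3.78, SE 0.26, adjusted p = 1.38e-06).

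At 16 h Serpina3f had 0 counts in all 5 control cultures, which allows up to 0.00906 CPM at 3 counts over the group, for counting error only. The VWF-treated cultures had 0.0366, 0.106, 0.110, 0.166 and 0.206 CPM, from 2 to 14 counts, and the LPS-treated cultures had 12.2, 16.6, 16.9 and 17.7 CPM. Against that floor over the group, Serpina3f was at least 1748-fold higher with LPS (adjusted p = 2.74e-06) and at least 13.8-fold higher with VWF, the latter without a test. VWF was below LPS by 127-fold (log2 difference -6.92, SE 0.33, adjusted p = 1.44e-07). Serpina3g was at 0, 0.0488, 0.154, 0.175 and 0.364 CPM in control cultures, at 0.284, 0.659, 0.667, 0.757 and 0.928 CPM with VWF and at 47.7, 66.8, 73.6 and 74.8 CPM with LPS. LPS against control gave 8.69 (SE 0.60, adjusted p = 2.06e-06), VWF against LPS -6.62 (SE 0.30, adjusted p = 9.59e-08), and VWF against control 2.15 (SE 0.67), without a test. Without control culture 2 the differences from control were 9.37 with LPS and 2.79 with VWF. The control and VWF ranges of Serpina3g overlapped at 16 h.

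With time the A3 genes parted ways between stimuli. In VWF-treated cultures Serpina3f fell by 3.03 (SE 0.39, adjusted p = 3.52e-06) and Serpina3g by 2.59 (SE 0.29, adjusted p = 6.36e-07) on the log2 scale from 3.5 h to 16 h, over all genes with a count. In LPS-treated cultures the changes were -0.86 (SE 0.20, adjusted p = 0.00533) for Serpina3f and 0.31 (SE 0.20, adjusted p = 0.21) for Serpina3g, neither past the fold threshold. The VWF-LPS difference grew between the times by -2.11 for Serpina3f (SE 0.37, adjusted p = 0.000128) and by -2.86 for Serpina3g (SE 0.38, adjusted p = 7.32e-06). In control cultures Serpina3f was at least 8.96-fold lower at 16 h, against the same floor (adjusted p = 0.0141), a call that the replicate block ended (adjusted p = 0.0983). Serpina3g was lower by 2.35 on the log2 scale (SE 0.64, adjusted p = 0.0211), a call lost when control culture 1 or 5 of 3.5 h or 3 or 4 of 16 h was left out, and the difference was -3.003 without culture 2 of 16 h. The cathepsins Ctsb and Ctsl, by contrast with their inhibitor, were called in none of the 11 comparisons, where their log2 differences lay between -0.62 and 0.64.

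Dendritic cell markers are given beside the A3 genes. The summed level of the 5 markers was between 0.62 and 1.00 TPM in control cultures at 3.5 h, 8.30 and 10.2 TPM with VWF and 10.4 and 12.0 TPM with LPS. At 16 h it was between 0.35 and 0.84 TPM with control, 0.56 and 1.68 TPM with VWF and 7.41 and 12.4 TPM with LPS. Where the sum was high, most of it was the single gene Xcr1. Its group means were 7.92 TPM with VWF and 10.4 TPM with LPS at 3.5 h, and 9.11 TPM with LPS at 16 h. The other markers stayed low in every group mean: Flt3 at or below 0.0275 TPM, Zbtb46 at or below 0.963 TPM, Clec9a at or below 0.690 TPM and Siglech at or below 0.173 TPM. The part of such cells in the Serpina3f and Serpina3g values was not tested. Of the 100-base windows of their transcripts, 3.40% for Serpina3f and 3.49% for Serpina3g also occur in other copies of the A3 cluster, so a small part of their counts could belong to a neighbour.

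**Figure D3:**
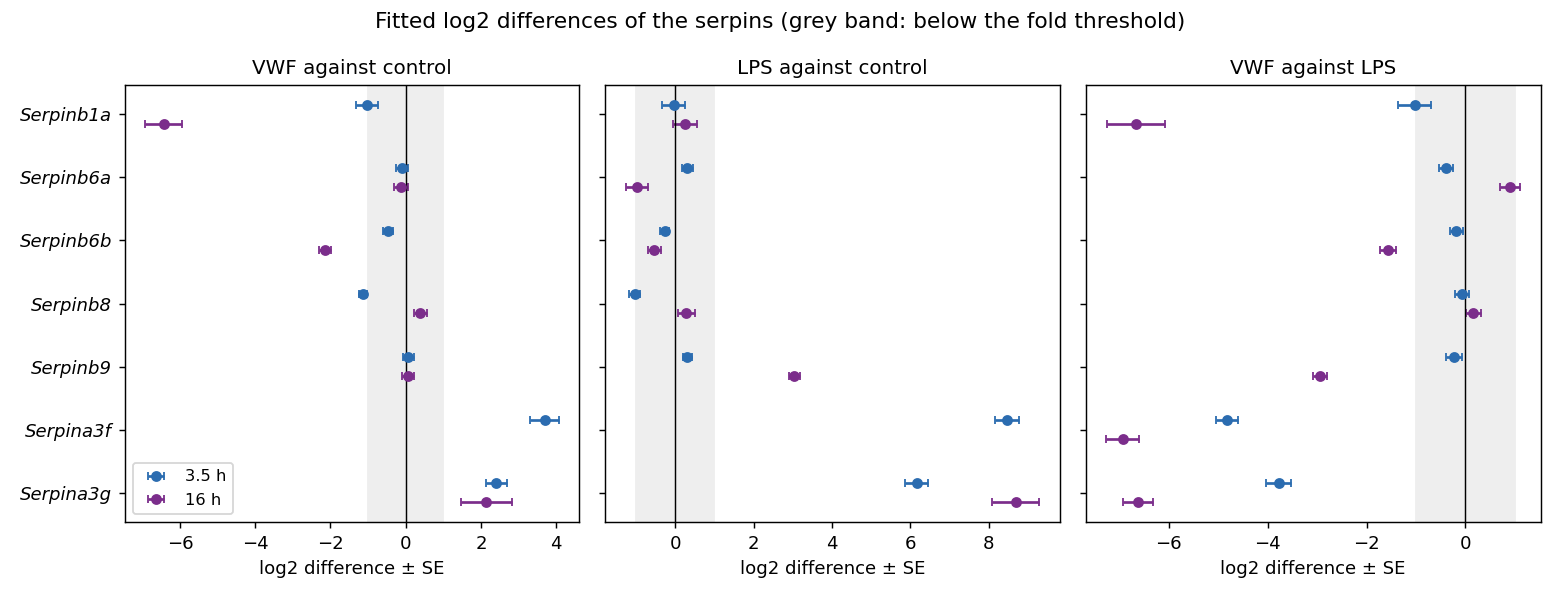
Points are fitted log2 differences with SE bars for each serpin, at 3.5 h (blue) and 16 h (purple), for the 3 comparisons between treatments. Serpinb1a lies at -6.43 for VWF against control at 16 h, Serpina3f has no point for comparisons with the control cultures of 16 h, where it had 0 counts, and the grey band spans log2 differences from -1 to 1.

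Counted over the members that passed the 10 TPM filter, the calls read against the background as follows. At 3.5 h VWF against control called 1 of 4, Serpinb8, with 14.7% of all genes called. LPS against control called 3 of 6, with 24.5% of all genes called, and VWF against LPS called 2 of 6, with 11.4%. In the fit over all genes with a count, which served the members under the filter, 9.05%, 17.7% and 7.69% of genes were called in these 3 comparisons. It called 3 of 3 members for VWF against control, Serpinb1a for VWF against LPS, and not Serpinb1a for LPS against control. At 16 h 7 members passed and 6 had a test. LPS against control called 3 of them, with 27.6% of all genes called, and VWF against LPS called 4, with 25.5%. At both times, Serpina3f and Serpina3g were among the calls in each comparison that included LPS. They passed the 10 TPM filter there only through the LPS-treated cultures, so the filter largely set the direction of these calls.

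Over time the counts were lower for control and VWF. Control cultures gave 1 call among 4 tested members, with 9.11% of all genes called, and 2 of 2 under the filter, with 5.72% called in that fit. VWF-treated cultures gave 0 calls among 4 tested members in edgeR and in DESeq2, with 21.4% of all genes called. In edgeR, 3 of the 4 had an adjusted p under 0.05 and missed only the fold threshold. The 2 tested members under the filter were both called, with 15.2% called in that fit. LPS-treated cultures gave 3 calls among 7, with 28.1% of all genes called. Among these calls, Serpinb1a passed the filter only through cultures of 16 h, so the filter largely set its direction. The LPS effect differed between the times for 5 of 6 tested members, with 26.3% of all genes called, and the VWF-LPS difference did so for 5 of 6, with 25.0%. Comparisons of a time share their control or LPS cultures and are not independent.

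The members moved in few common patterns over the 28 cultures. On log2 CPM, Serpina3f and Serpina3g correlated at r = 0.97, and Serpinb1a and Serpinb6b at 0.88. Serpinb6a ran against Serpinb9 at -0.87, and Serpinb8 with Serpinb6b was at 0.0036. These values and those that follow are descriptions over cultures that share groups. For Serpinb1a they include the VWF and control cultures of 16 h on which it was chosen. Among 8867 genes that reached 10 TPM in at least 1 culture, those most like Serpinb1a were Nr4a2 (r = 0.943), Spp1 (0.943) and Clec4n (0.899). Serpinb6b ran closest to Stap1 (0.942), Serpina3f to Tor1aip2 (0.985) and Serpina3g to Serpina3f and then Cd274 (0.963). Serpinb6a was closest to Eif3f (0.979) and Serpinb8 to Usp6nl (0.891).

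**Figure D4:**
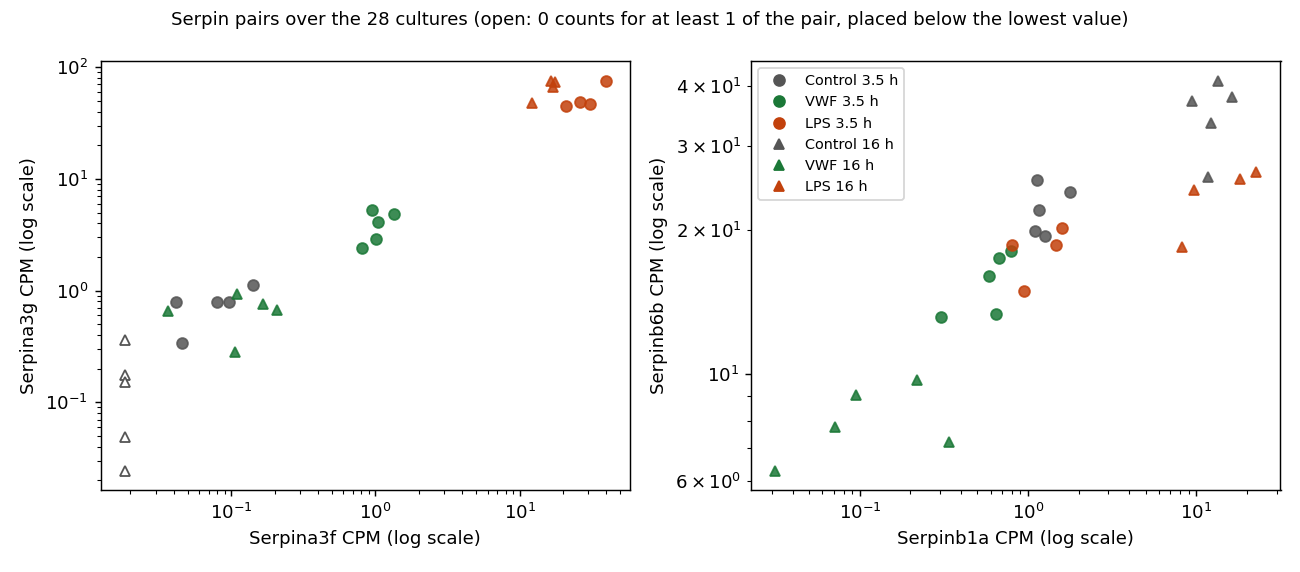
Each point is 1 of the 28 cultures, with CPM of Serpina3f against Serpina3g (left) and Serpinb1a against Serpinb6b (right) on log axes, coloured by treatment, with circles for 3.5 h and triangles for 16 h. LPS-treated cultures sit apart at the top of the left panel, and VWF-treated cultures of 16 h at the bottom of the right panel.

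Of 31 other clade B and A3 serpins, 21 had a count and 1 reached 10 TPM, Serpinb2, an inhibitor of urokinase. Serpinb2 rose with LPS at 3.5 h (log2 difference 1.92, SE 0.30) and at 16 h (1.79, SE 0.50). It was lower with VWF than with control at 16 h (-1.51, SE 0.43) and than with LPS (-3.24, SE 0.43). Its group means at 16 h were 9.16 CPM with control, 3.25 CPM with VWF and 30.8 CPM with LPS. The VWF-treated cultures of 16 h had at most 336 counts of it, against up to 1178 with control and 2533 with LPS. In the comparisons with VWF at 16 h it passed the filter through the other group, so the filter largely set the direction. Of the other Serpinb1 copies, Serpinb1b was at 3.01 CPM in control and 3.30 CPM in VWF-treated cultures at 16 h, and Serpinb1c at 3.86 and 1.34 CPM. Both stayed under the filter. Among serpins of other clades, 5 of 23 reached 10 TPM, and the calls included Serping1, the inhibitor of complement C1, which was higher with LPS at 16 h than with control (log2 difference 2.46, SE 0.58) and than with VWF. Serping1 passed the filter there only through the LPS-treated cultures, so the filter largely set this direction.

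Among proteases and other inhibitors, more genes were called higher than lower with LPS at 16 h. In that comparison with control, where 27.6% of all genes were called, 11 of 17 tested proteases were higher and 1 lower, with a median log2 difference of 1.32 against -0.03 over all genes tested. The largest rises were those of the coagulation protease F10 (4.53, SE 0.17), the inflammatory caspases Casp4 (3.90, SE 0.23) and Casp1 (3.12, SE 0.14), and Ctsc (3.20, SE 0.25), which activates granule serine proteases. With VWF at 16 h, where 8.71% of all genes were called, 2 were higher and 1 lower, namely Ctsc (2.11, SE 0.24), Ctsh (1.58, SE 0.17) and the urokinase gene Plau (-2.37, SE 0.14). At 3.5 h the counts were 5 higher and 1 lower for VWF and the same for LPS, where 14.7% and 24.5% of all genes were called. Of other protease inhibitors, 5 of 9 were higher with LPS at 16 h, led by the cystatin Cst7 (6.82, SE 0.22), and 3 of 8 were higher with VWF, led by the secretory leukocyte protease inhibitor Slpi (4.54, SE 0.32). No inhibitor of that list was called lower in these comparisons. The filter partly set these counts, since some inhibitors passed it only through the treated cultures and could hardly be called lower. Slpi had at most 56 counts in a control culture of 16 h, against up to 1055 with VWF and 1464 with LPS. Wfdc21 had at most 4 with control and 110 with LPS. These lists were written with earlier results of these data known and are described by their counts alone.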

How the data were processed

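Paired-end reads of 150 bases were mapped by the authors to GRCm38 with STAR and deposited as whole-number counts per gene, with no normalization or filter. The sources used here do not give the annotation, the strand setting or the handling of multiply mapped reads. Exon lengths and positions came from GENCODE M21 and served to compute TPM. edgeR quasi-likelihood tests (edgeR 4.0.16, R 4.3.3, robust, TMM) were fitted on the groups compared, over genes reaching 10 TPM in at least 1 culture, with Benjamini-Hochberg adjustment. A call required an adjusted p under 0.05 and an absolute log2 difference above 1, as in the study's methods, which used DESeq2 (1.42.0 here, an alternative). Members under the filter took their values from a fit over all genes with a count. SE is the log2 difference over the square root of F. Other scalings and filters, all groups in one fit, a replicate block and each culture left out were tried.

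Scaling by library size put the median log2 difference of all genes between -0.57 and 0.44 in comparisons between treatments. No culture duplicated another (chi-square per degree of freedom of at least 17.1 over 52 pairs). Same-numbered cultures deviated together, every pair over 0.1, for VWF and LPS at 16 h alone (0.160 to 0.781), and no label says what the numbers stand for. Members and lists were chosen with earlier results of these data known. Outside the members, the text names called genes of each list by the size of the log2 difference, up to 4 per comparison, and the genes most correlated with each member; some of these are not reported here. The proteases that members inhibit, Serpinb1b and Serpinb1c were added by their role.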

Additional observations from a re-analysis of the deposited data

Results flagged for a closer look

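Within groups of 4 or 5 cultures, 5 of 41 sets of a serpin and a group held a culture far from the others by Dixon's test, where chance gives about 1 in 20. Control culture 2 at 3.5 h had the highest Serpinb1a, 1.77 CPM. Control culture 5 at 16 h, which stood apart over all genes, had the highest Serpinb6a, 959 CPM, and the lowest Serpinb8, 14.5 CPM. Its Serpinb6a on the TPM scale was 377, against 275 to 320 in the other control cultures of that time. Control culture 1 at 3.5 h had the lowest Serpinb8 of its group, 59.4 CPM, and LPS culture 4 at 3.5 h the highest Serpina3g, 75.6 CPM.

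The effect of LPS against control differed between 16 h and 3.5 h for 5 members in the edgeR interaction test. The log2 difference of the effects was 2.74 for Serpinb9, 2.53 for Serpina3g, 1.34 for Serpinb8 and -1.28 for Serpinb6a, and for Serpina3f, with control cultures at 0, only the adjusted p of 0.000627 is given. The difference between VWF and LPS changed between the times by -2.86 for Serpina3g, -2.71 for Serpinb9, -2.11 for Serpina3f, -1.40 for Serpinb6b and 1.27 for Serpinb6a. The Serpinb1a value of -5.69 in that interaction uses the cultures it was chosen on and carries no test.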

How the results depend on the processing

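Of the values of single serpins under alternatives, 1338 were counted as unchanged, 17 passed the thresholds anew, 16 no longer passed, and 17, none of them called, were counted as changing sign. With library size scaling these were Serpinb9 for VWF against control (-0.15), Serpinb6a and Serpinb9 for LPS against control (both -0.21) and Serpinb6b (0.11), Serpinb8 (0.21) and Serpinb9 (0.059) for VWF against LPS at 3.5 h, and Serpinb8 for LPS against control at 16 h (-0.27). Serpinb1a for LPS against control at 3.5 h turned to 0.025 in DESeq2 and 0.023 with median-of-ratios factors, and Serpinb8 for VWF at 16 h against 3.5 h to -0.0091 under filterByExpr and -0.028 without a filter. With each culture left out in turn, Serpinb9 for VWF against control at 3.5 h ranged from -0.039 to 0.16, Serpinb1a for LPS against control at 3.5 h from -0.20 to 0.11 and Serpinb8 for VWF over time from -0.0064 to 0.094. For values without a test, unchanged meant a shift under the SD between cultures, so sign changes of small differences are among the 1338. At 16 h these included VWF against control for Serpinb6a (up to 0.089) and Serpinb9 (down to -0.050). LPS against control for Serpinb1a at 16 h (down to -0.028) was another. Counts of members called depended mainly on the filter and the fold threshold. VWF against control at 3.5 h went from 1 to 4 under filterByExpr, 4 without a filter and 2 without a fold threshold, since 3 of the members lie under 10 TPM. LPS against control at 16 h went from 3 to 5 with library size scaling and to 5 without a fold threshold. Control at 16 h against 3.5 h went from 1 to 2 under filterByExpr, 3 without a filter and 4 without a fold threshold. VWF at 16 h against 3.5 h went from 0 to 2, 3 and 3 under the same settings, and ranged from 0 to 1 with each culture left out. LPS at 16 h against 3.5 h went from 3 to 5 without a fold threshold.

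With the replicate block, the paired fit of VWF against LPS at 16 h called 4 members, as without it. The block ended the call of Serpina3f alone, for control at 16 h against 3.5 h (adjusted p = 0.0983). Leaving out both cultures that stood apart, chosen after seeing the data, moved Serpinb6a to -1.001 for LPS against control and to 1.14 for VWF against LPS at 16 h, both past the threshold. Depth limits Serpina3f in control cultures, with 24 counts in all at 3.5 h and 0 at 16 h, and Serpinb1a with VWF at 16 h, with 45 counts in all.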
